A study of Mus musculus and Acomys cahirinus with 2 samples.

Results

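Dermal fibroblasts are the matrix-producing cells of the dermis, and here they are 69 of the 16278 barcodes with at least 1000 UMIs and 200 genes in 2 droplet single-cell libraries of ear skin. A UMI is a molecular tag that counts 1 captured RNA molecule. The 69 comprised 51 of 9443 Mus barcodes, 0.540% (exact binomial 95% interval 0.402 to 0.710%), and 18 of 6835 Acomys barcodes, 0.263% (0.156 to 0.416%). They were chosen by readout: at least 5 UMIs on Col1a1, Col1a2, Col3a1 and Lum together, at most 2 UMIs on the cartilage genes Cytl1, Chad and Comp, Krt10 under 2% of UMIs and, in Mus, at most 20% of UMIs on mitochondrial genes. The levels of these genes in the chosen cells are therefore a description.

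The Mus group is adult Mus musculus ear skin and the Acomys group is adult Acomys cahirinus ear skin, a spiny mouse, both labelled day 0. The series' own text calls the ears injured, and the labels name no treatment or genotype. How many animals gave the cells is not given in these sources. Each species has 1 library, so no difference between them has a replicate check and no test was possible. Species, animal, library and the 2 gene annotations cannot be told apart in any ratio between them.

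Fibroblasts secrete the collagens, proteoglycans and elastic fibre proteins that give the dermis its strength and recoil, and the enzymes that process and remove them. In mouse skin they include papillary cells under the epidermis, reticular cells deeper in the dermis and specialised cells around the hair follicle, which differ in Wnt regulators, matrix genes and chemokines. Through secreted Wnt, BMP and TGF-beta regulators and chemokines they act on the neighbouring epithelium and on immune cells.

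The Mus fibroblasts had a median of 4024 UMIs (1055 to 18349) and 1596 genes per cell, and the Acomys fibroblasts 2630.5 UMIs (1001 to 4535) and 1054.5 genes. Their totals were 227646 and 46897 UMIs. In all, 78 Mus and 54 Acomys barcodes reached 5 collagen and lumican UMIs, and the limit on cartilage genes removed 25 and 35 of them and that on Krt10 a further 2 and 1. Just inside the minimum, 4 Mus and 3 Acomys fibroblasts had exactly 5 such UMIs, and just outside it 5 and 4 barcodes had 4. The 4 genes held 0.0438 to 14.3% of the UMIs of a Mus fibroblast (median 2.18%) and 0.133 to 5.01% of those of an Acomys fibroblast (median 0.849%).

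**Figure D1:**
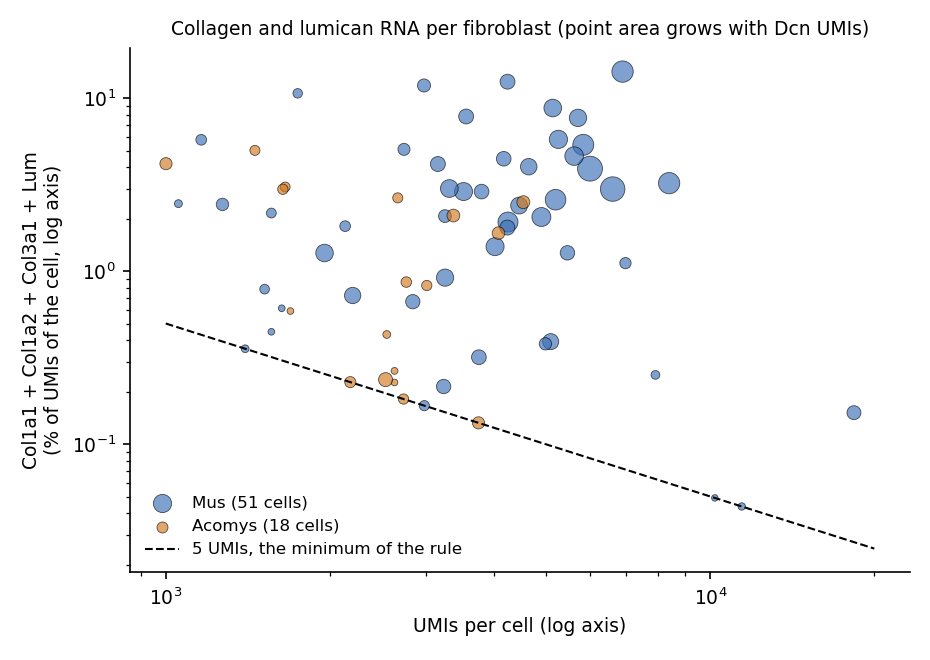
Total UMIs of each fibroblast (x axis, log scale) against the percent of its UMIs on Col1a1, Col1a2, Col3a1 and Lum (y axis, log scale), blue for the 51 Mus and orange for the 18 Acomys cells, with point area growing with Dcn UMIs. The dashed line is the minimum of 5 UMIs, and 4 Mus and 3 Acomys cells lie on it.

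Dcn, which encodes the proteoglycan decorin and was no part of the rule, had UMIs in 50 of 51 Mus and 18 of 18 Acomys fibroblasts. Among Krt10-rich barcodes, which are keratinocytes and should lack it, 11.9% had a Dcn UMI in Mus and 21.8% in Acomys at median depths of 15807 and 8973 UMIs. Thinned to 1000 UMIs per cell, the shares were 95.4% against 1.62% in Mus and 92.1% against 4.20% in Acomys. The level of Dcn in the fibroblasts was 792 (757 to 828) times that of all other barcodes of at least 1000 UMIs, here called the other barcodes, in Mus and 116 (107 to 125) times in Acomys. At least 1 Dcn UMI was thus present in nearly every cell that the rule chose. In a few cells of each library it was only 1 or 2 UMIs, which does not tell them apart from keratinocytes.

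Keratin RNA was present in all 69 cells, at a median of 1.14% of UMIs in Mus and 1.09% in Acomys. The Acomys gene list has no Krt14, a basal keratin, so these 2 shares are not like for like. Krt10, a keratin of differentiated keratinocytes, held 0.286% of the UMIs of the Mus fibroblasts against 1.12% of the UMIs of barcodes with 1 to 10 UMIs, which carry free RNA, and 0.712% against 1.94% in Acomys. Blood endothelium markers summed to 18 UMIs in the Mus fibroblasts, with 4 of 10 genes at 0, and to 0 in Acomys, with all 10 at 0. Lymphatic endothelium and mast cell markers were at 0 in both, T cell markers at 2 and 0 UMIs, myeloid markers at 25 and 0, and melanocyte markers at 15 and 0. Chondrocyte markers were at 11 and 13 UMIs. That list holds Cytl1, Chad and Comp, which the rule limits to 2 UMIs per cell, so its count was partly fixed by the rule. Schwann cell markers gave 68 UMIs in Mus, 62 of them on Pmp22, and 1 in Acomys. Other lists had more UMIs. Keratinocyte markers gave the most among the lists of other cell types. Suprabasal markers gave 1462 UMIs in Mus and 581 in Acomys, and basal markers 771 and 112. For scale, the fibroblast list of Col1a1, Col1a2, Col3a1, Lum and Dcn gave 12615 and 1363. Hair follicle markers gave 323 in Mus and 91 in Acomys, and sebocyte markers 226 and 17. Mural cell markers gave 73 and 8, dermal sheath markers 88 and 13 and cell cycle genes 125 and 8. No barcode sequence was shared between the 51 and the 18 cells, and 68 were shared among all barcodes of at least 1000 UMIs. Doublets were scored and kept. The highest scores were those of 713 of 9443 Mus and 374 of 6835 Acomys barcodes, among them 4 of the 51 and 3 of the 18 fibroblasts. The median score of the fibroblasts was above that of all barcodes, at 0.1326 against 0.07344 in Mus and 0.09739 against 0.03345 in Acomys.

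The fibroblasts were set against all other barcodes of their own library, for genes with at least 20 UMIs in them. Srpx, Col1a1 and Col3a1 were among the 10 leading genes in both libraries, and other genes led in only 1 of them. Srpx, a secreted sushi repeat protein, stood at 1413 (813 to 2586) times the other barcodes in Mus and 1436 (755 to 2809) times in Acomys. Serpinf1, Pcolce and Dpep1 were among the 10 in Acomys alone and stood high in Mus too. Serpinf1, which encodes the secreted factor PEDF, stood at 704 (607 to 817) and 528 (387 to 714) times. Pcolce, an enhancer of procollagen cleavage, stood at 527 (454 to 612) and 774 (577 to 1037) times, and Dpep1, a membrane dipeptidase, at 931 (641 to 1371) and 826 (435 to 1561) times. These cells were chosen from the same counts, so the ratios describe the choice.

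Other leading genes differed between the libraries. In Mus, the chemokine gene Ccl11 stood at 2396 (1574 to 3785) times the other barcodes, Apod, which encodes the lipid carrier apolipoprotein D, at 1484 (1345 to 1639) times and the methyltransferase gene Inmt at 1462 (902 to 2464) times. In Acomys, Tnmd, encoding tenomodulin, stood at 1407 (751 to 2701) times, Crabp1, a retinoic acid binding protein, at 748 (417 to 1331) times, and Mfap5, a microfibril protein, at 589.5 (485 to 715) times. Tnmd and Mfap5 also stood high in Mus, at 382 (248 to 586) and 613 (473 to 796) times.

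Cartilage is another collagen-rich tissue of the ear. The comparison used the 172 Mus and 116 Acomys barcodes with at least 5 UMIs on the 3 cartilage genes. Igfbp6 stood 28.4 (22.4 to 36.3) times higher in fibroblasts than in those barcodes in Mus and 43.2 (27.3 to 72) times in Acomys, and Mfap5 43.3 (23.5 to 88.5) and 54.7 (34.4 to 91.8) times. Mgp, an inhibitor of calcification, was lower in fibroblasts, at 0.122 (0.0921 to 0.158) times the cartilage-marked level in Mus and 0.248 (0.202 to 0.30) times in Acomys. Sparc, which encodes a collagen-binding glycoprotein, was close to level, at 1.22 (1.13 to 1.32) and 1.17 (1.01 to 1.35) times.

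To compare the species, UMIs were summed over the fibroblasts of each library and set as CPM, counts per 1000000 of the UMIs on the 15710 gene symbols that both gene lists hold. These held 68.7% of the UMIs of the Mus and 70.7% of those of the Acomys fibroblasts. Each ratio of Acomys to Mus carries an exact conditional binomial 95% interval that covers counting error only. Log2 ratios add a prior count of 0.5. Among 3073 genes with at least 10 UMIs over both libraries, 569 (18.5%) stood at least 2-fold above Mus in Acomys and 919 (29.9%) at least 2-fold below. With the interval clear of 1 as well, 295 (9.6%) were higher and 289 (9.4%) lower. The median log2 ratio was -0.08, and -0.44 when ratios were centred on genes of at least 50 CPM in both. The higher genes were 38.2% of those past 2-fold, and 24.8% after that centring.

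The total behind the Acomys values was the smaller. Of the 3073 genes, 608 had no UMI in the Acomys fibroblasts, where 3 counts amount to 90.5 CPM against 19.2 CPM in Mus. Of these, 17 had no UMI in any other Acomys barcode either, Ccl11, Dpt and Sfrp4 among them. They also include Lgals3 and Gnas, with 441078 and 34658 UMIs in the other Mus barcodes, so a gene at 0 throughout Acomys cannot be told apart from one that its annotation does not count under that symbol. Genes of at least 300 CPM in the higher library, a limit set after seeing the data, numbered 684, with 200 higher and 123 lower, so that 61.9% of the called genes were higher. With all genes of at least 1 UMI the share was 53.6%. Without the 15 Mus cells of the second sub-cluster, also a choice made after seeing the data, 486 of 2159 genes were higher and 652 lower. Across the genes, the ratio in the fibroblasts and that in all other barcodes had a Pearson r of 0.68, and 1291 of the 1488 called genes lay on the same side in both. The 2 sets of barcodes share libraries and annotations.

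**Figure D2:**
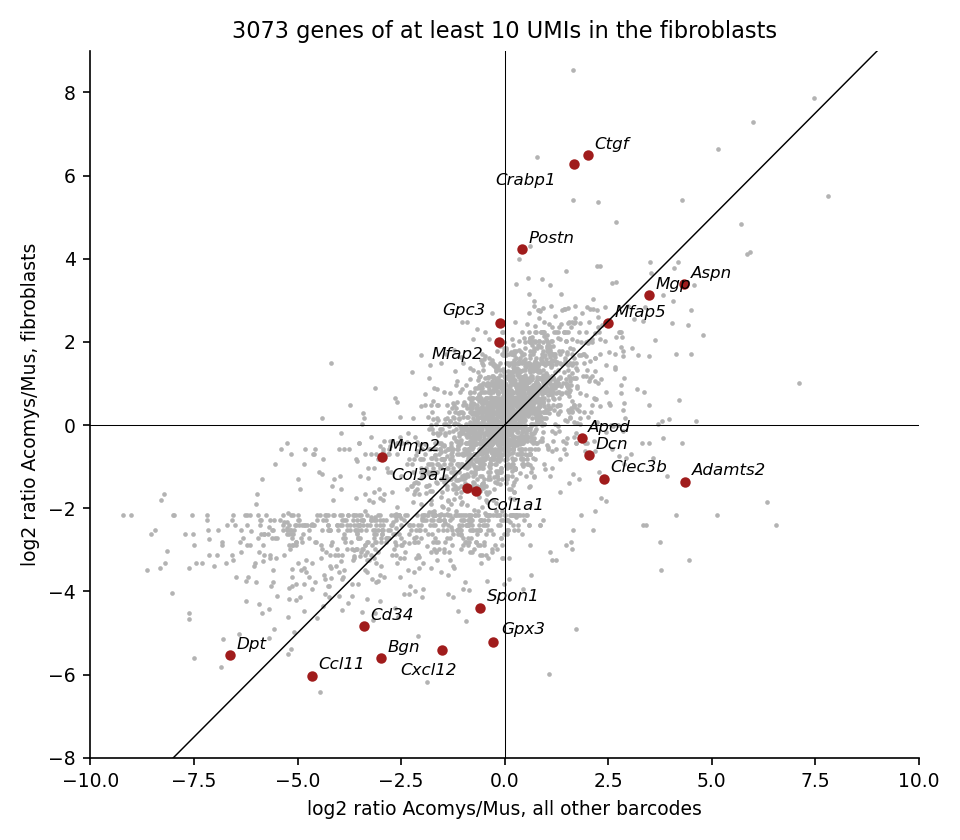
Log2 ratio of Acomys to Mus in all other barcodes (x axis) against that in the fibroblasts (y axis) for 3073 genes, each a grey point, with 22 named genes in red and the line of equal ratios. Postn (4.23 in fibroblasts, 0.42 elsewhere) and Gpc3 (2.45, -0.10) lie far above the line. Adamts2 (-1.36, 4.36) and Clec3b (-1.29, 2.39) lie far below it. Their levels elsewhere were low: Adamts2 at 0.408 CPM in Mus and 8.54 CPM in Acomys, and Clec3b at 5.7 and 30 CPM.

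Fibrillar collagens are the rope-like collagens of the dermis, and 3 of them chose the cells, so the list is described without support from its count. Of 12 listed genes 6 had enough UMIs, 0 of them at least 2-fold higher and 4 lower, 3 of them with an interval clear of 1, beside 18.5% and 29.9% of all genes measured. The median log2 ratio was -1.55. Col1a1, a chain of type I collagen, ranged from 0 to 5.45% of the UMIs of a Mus cell (median 0.471%) and from 0 to 0.975% of the UMIs of an Acomys cell (median 0.204%). The cells of the libraries overlapped, with 13 Mus cells above every Acomys cell. Summed, Col1a1 was 12498 CPM in Mus and 4163 CPM in Acomys, 3.0-fold (2.52 to 3.59) lower. Col3a1, the chain of type III collagen, was 2.85-fold (2.46 to 3.32) lower and Col1a2, the other chain of type I, 1.77-fold (1.55 to 2.03) lower. These 3 are genes of the rule, and their ratios describe the chosen cells.

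Col5a2, which encodes a chain of the type V collagen that seeds fibrils, was not in the rule. Of the 3 measured genes outside the rule, it was the only one with an interval clear of 1. It had 135 UMIs in 32 Mus cells and 6 UMIs in 5 Acomys cells, 4.77-fold (2.13 to 13.2) lower in Acomys. Col16a1, a fibril-associated collagen, had a ratio of 1.35 (0.531 to 3.04), and Col14a1 had 14 Mus UMIs and none in Acomys. Of the sheet, beaded and basement membrane collagens 7 were measured, 0 higher and 1 lower by 2-fold, beside 18.5% and 29.9% of all genes. Their median log2 ratio of 0.28 became -0.07 when centred on well-expressed genes. The chains of type VI collagen, which forms beaded filaments around cells, were measured in both: Col6a1 gave a ratio of 0.549 (0.312 to 0.91), Col6a2 of 1.54 (0.956 to 2.4) and Col6a3 of 1.21 (0.691 to 2.03). Only the interval of Col6a1 left out 1. Col15a1 had 22 UMIs in Mus and none in Acomys, at least 1.55-fold lower.

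Of the genes of collagen processing and crosslinking, 2 of 16 were at least 2-fold higher and 9 lower, 5 with a clear interval, against 18.5% and 29.9% of all genes measured. The median log2 ratio was -1.27, and its sign turned, to 0.03 with the 5 genes at 0 Acomys UMIs set at their bound. Serpinh1, the collagen chaperone of the endoplasmic reticulum, stood at 716 CPM in Mus and 241 CPM in Acomys, 2.97-fold (1.45 to 7.04) lower. Lox, the enzyme that starts collagen and elastin crosslinks, had 57 UMIs in 25 Mus cells and none in Acomys, at least 4.03-fold lower. Adamts2, which cuts the amino end of procollagen, was 2.86-fold (1.05 to 10.9) lower in the fibroblasts, whereas its log2 ratio in other barcodes was 4.36. Its level in other barcodes was low, at 0.408 CPM in Mus and 8.54 CPM in Acomys.

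Some processing genes were level or higher. Pcolce had 2615 and 2685 CPM, a ratio of 1.03 (0.807 to 1.29), while the related Pcolce2 was 2.35-fold (1.38 to 4.28) lower. P4hb, a subunit of the prolyl hydroxylase that stabilises the helix, was 3.09-fold (1.64 to 5.71) higher in Acomys, and Loxl1, a lysyl oxidase of elastic fibres, 2.52-fold (1.28 to 4.77) higher. Ppib, the cyclophilin that folds collagen, had UMIs in 48 of 51 and 17 of 18 cells and a ratio of 1.88 (1.42 to 2.46).

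**Figure D3:**
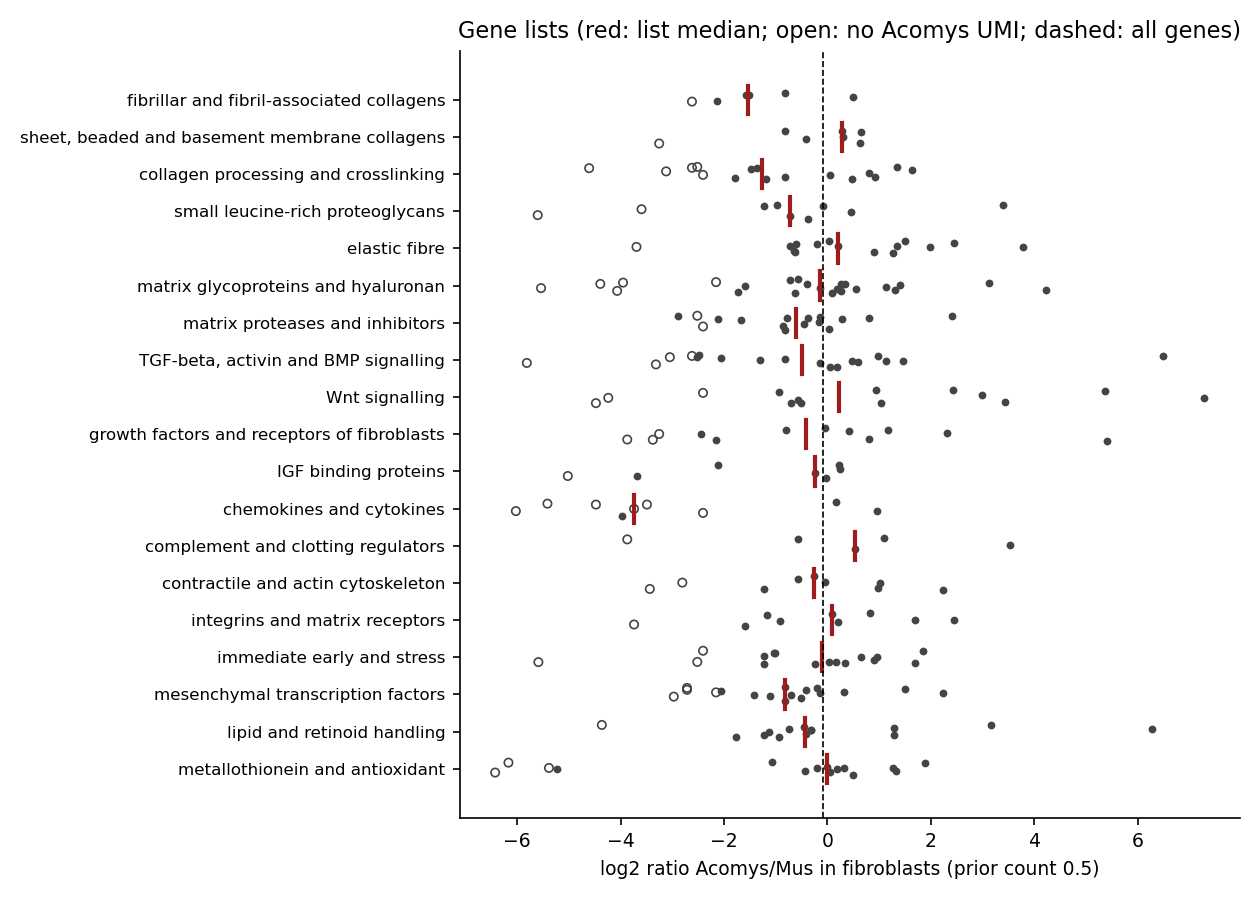
Log2 ratio of Acomys to Mus in the fibroblasts (x axis) for the measured genes of 19 lists (rows), with filled points for genes with UMIs in both, open points for genes with no Acomys UMI, a red bar at each list median and a dashed line at the median of all 3073 genes (-0.08). Chemokines (-3.74) and fibrillar collagens (-1.55) have the lowest medians, and single genes of the Wnt, elastic fibre and glycoprotein lists reach far to the right.

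Of 9 small leucine-rich proteoglycans, which bind collagen fibrils and set their spacing, 1 was at least 2-fold higher and 3 lower in Acomys. Over all genes measured the shares were 18.5% and 29.9%, and the median log2 ratio of the list was -0.73. Asporin (Aspn), a member that binds calcium and TGF-beta, ranged from 0 to 0.281% of the UMIs of a Mus cell (median 0.0342%) and from 0 to 2.4% of the UMIs of an Acomys cell (median 0.343%). It had UMIs in 31 of 51 Mus and 17 of 18 Acomys cells, and 9 Acomys cells lay above every Mus cell. Summed, it was 690.4 CPM in Mus and 7241 CPM in Acomys, 10.5-fold (8.32 to 13.3) higher, with a log2 ratio of 3.39 against 4.34 in other barcodes.

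Decorin ranged from 0 to 7.82% of the UMIs of a Mus cell (median 2.66%) and from 0.038 to 5.99% of the UMIs of an Acomys cell (median 1.58%). Those ranges overlapped over most of their length. Its sum of 35967 CPM in Mus was 1.66-fold (1.53 to 1.79) above the 21722 CPM in Acomys. In other barcodes Dcn lay the other way, with a log2 ratio of 2.04 at 45.4 CPM in Mus and 187 CPM in Acomys. Biglycan (Bgn), a close relative of decorin, had 114 UMIs in 37 Mus cells and none in Acomys, at least 8.05-fold lower, and Prelp 28 and none. In other barcodes the log2 ratio was -2.97 for Bgn, from 1427 Mus and 85 Acomys UMIs, and 0.63 for Prelp. Lum, a rule gene, was 2858 CPM in Mus and 2202 CPM in Acomys.

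Elastic fibres have an elastin core on a microfibril scaffold. The microfibril-associated genes Mfap2, Mfap4 and Mfap5 were higher in Acomys and elastin lower. Of 15 genes 6 were at least 2-fold higher, 5 with a clear interval, and 1 lower, beside 18.5% and 29.9% of all genes. The median log2 ratio was 0.21 (-0.15 when centred on well-expressed genes). Mfap5 ranged from 0 to 0.402% of the UMIs of a Mus cell (median 0.0454%) and from 0 to 1.43% of the UMIs of an Acomys cell (median 0.0166%), so that 5 Acomys cells lay above all Mus cells while 34 of 51 Mus and 9 of 18 Acomys cells held any. It summed to 972 and 5309.8 CPM, 5.46-fold (4.37 to 6.83) higher in Acomys, and 1 cell held 65 of its 176 Acomys UMIs.

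Mfap4 had 9 UMIs in 4 Mus cells and 27 UMIs in 5 Acomys cells, 14.2-fold (6.46 to 34.2) higher, with a log2 ratio of 4.1 in other barcodes. The 4 Acomys cells with 1 or 2 cartilage UMIs held 20 of the 27, and cartilage-marked Acomys barcodes stood at 626 CPM against 815 in the fibroblasts. Mfap2, which binds fibrillin, was 3.96-fold (2.26 to 6.89) higher in the Acomys fibroblasts and close to level elsewhere, with a log2 ratio of -0.14 in other barcodes. Eln, elastin itself, had 30 UMIs in 16 Mus cells and none in Acomys, at least 2.12-fold lower. Fbn1, which encodes fibrillin, had a ratio of 0.607 (0.266 to 1.22) and Fbln1, a fibulin, of 0.619 (0.256 to 1.3), with intervals that held 1. Ltbp4, a binder of latent TGF-beta, was 2.36-fold (1.21 to 4.43) higher.

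Among matrix glycoproteins 5 of 23 were higher in Acomys by at least 2-fold and 7 lower, 4 and 4 with a clear interval, shares near the 18.5% and 29.9% of all genes. The median log2 ratio was -0.14. Periostin (Postn), a matricellular protein of collagen-rich tissue, ranged from 0 to 0.428% of the UMIs of a Mus cell (median 0%) and from 0 to 3.36% of the UMIs of an Acomys cell (median 0.103%). It had UMIs in 20 of 51 Mus and 10 of 18 Acomys cells, and 8 Acomys cells held at least 5 against 1 Mus cell. It summed to 352 CPM in Mus and 6637 CPM in Acomys, 18.9-fold (14 to 25.9) higher. In other barcodes the log2 ratio was 0.42 against 4.23 in the fibroblasts. Thinned to 1000 UMIs, the share of cells with a Postn UMI was 17.4% in Mus and 52.4% in Acomys, against 1.80 and 2.60% among Krt10-rich barcodes.

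Mgp was 8.79-fold (6.33 to 12.3) higher in the Acomys fibroblasts, at 371 and 3258 CPM, with a like ratio elsewhere (log2 3.13 and 3.49). One Mus cell held 28 of the 58 Mus UMIs. Dermatopontin (Dpt), which binds decorin, had 109 UMIs in 31 Mus cells and none in any Acomys barcode, as was the case for Lgals3 and Gnas, at least 7.7-fold lower. Spon1, a secreted spondin, had 49 UMIs and none, at least 3.46-fold lower. The basement membrane genes Hspg2 (perlecan) and Nid1 (nidogen) had 39 and 36 Mus UMIs and none in Acomys, at least 2.75-fold and 2.54-fold lower. Ecm1 had a ratio of 1.19 (0.893 to 1.56). Sparc had a ratio of 1.27 (1.09 to 1.47), and its direction turned with the scaling (log2 0.35, or -0.01 when centred).

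**Figure D4:**
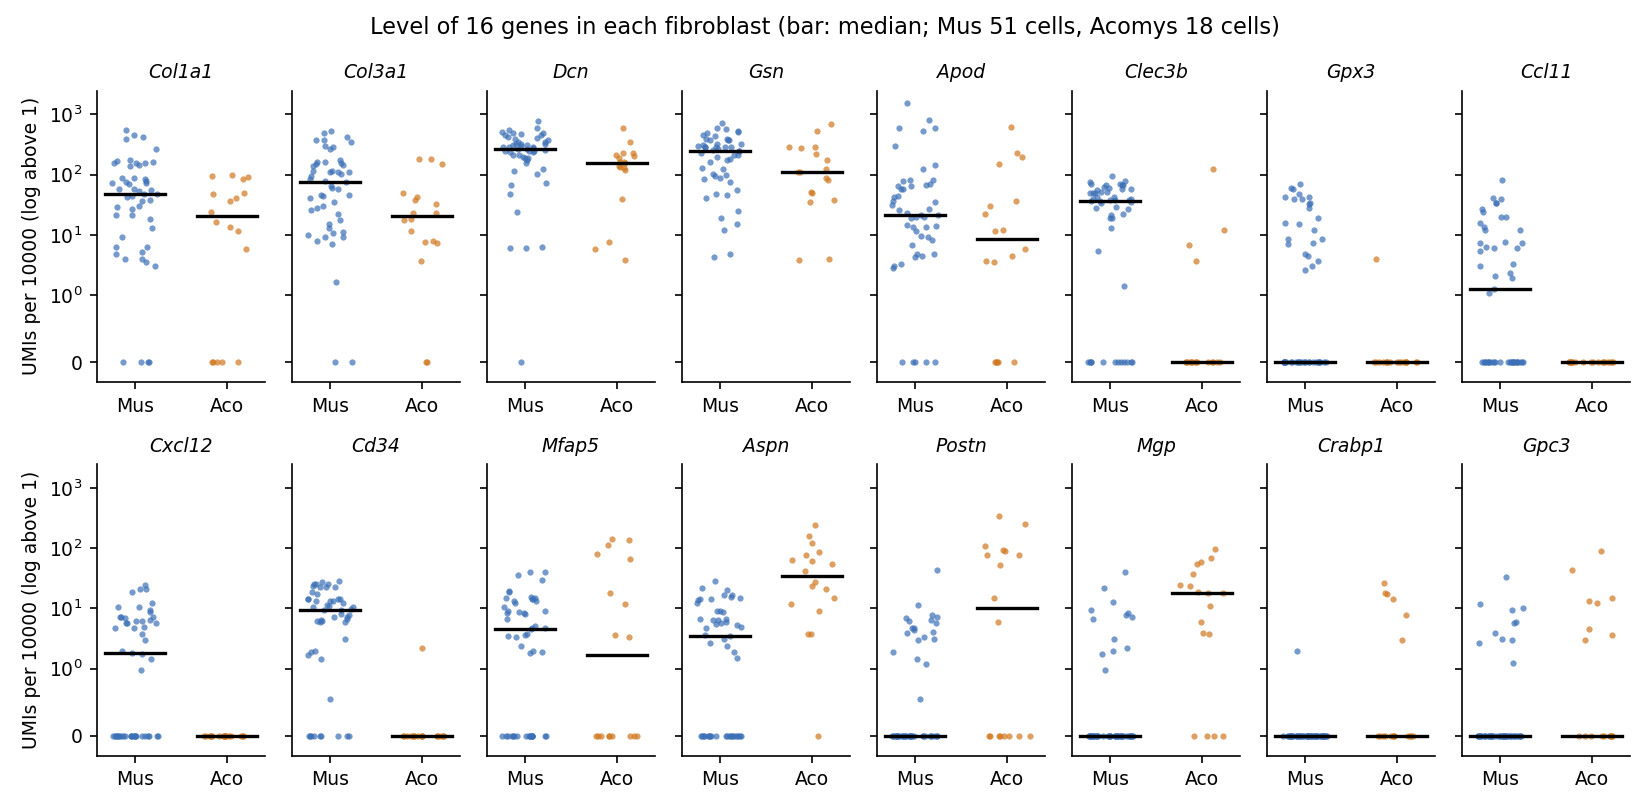
UMIs per 10000 in each fibroblast (y axis, linear to 1 and log above) for 16 genes, blue for 51 Mus and orange for 18 Acomys cells, with bars at the medians. Aspn, Postn and Mgp sit higher in Acomys, with UMIs in 17, 10 and 14 of 18 cells, while Ccl11 and Cxcl12 have no Acomys UMI and Gpx3 and Cd34 have 1 each.

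Among matrix proteases and their inhibitors 1 of 16 was at least 2-fold higher and 5 lower in Acomys. Over all genes the shares were 18.5% and 29.9%, the latter near that of the list, whose median log2 ratio was -0.61. Mmp2, gelatinase A, had 294 UMIs in 42 Mus cells and 36 in 12 Acomys cells, 1.73-fold (1.22 to 2.52) lower, a far smaller gap than in other barcodes (log2 -0.77 against -2.96). Mmp3, stromelysin, was 3.67-fold (1.19 to 18.4) lower here and log2 -8.23 elsewhere. Htra1, a secreted serine protease, was 4.75-fold (1.97 to 14.9) lower.

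Timp1, an inhibitor of metalloproteinases, ran the other way, with 15 UMIs in 10 Mus cells and 17 in 9 Acomys cells, 5.35-fold (2.51 to 11.5) higher. Timp2 ranged from 0 to 1.12% of the UMIs of a Mus cell (median 0.212%) and from 0 to 0.617% of the UMIs of an Acomys cell (median 0.21%), with overlapping cells and a ratio of 0.884 (0.704 to 1.1). The lysosomal cathepsin Ctsl had a ratio of 0.767 (0.563 to 1.03), whose interval held 1.

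Among TGF-beta, activin and BMP genes, 3 of 18 were higher in Acomys by at least 2-fold and 8 lower, 5 of those with a clear interval. Over all genes the shares were 18.5% and 29.9%, and the median log2 ratio of the list was -0.48. Ctgf, a matricellular target of TGF-beta and YAP, had 1 UMI in Mus and 28 UMIs in 9 Acomys cells, a ratio of 132 (21.8 to 5403), against log2 2.01 in other barcodes. The 4 Acomys cells with 1 or 2 cartilage UMIs held 19 of the 28, and cartilage-marked Acomys barcodes stood at 2968 CPM against 845 in the fibroblasts. Nbl1, a secreted BMP antagonist, had 132 UMIs in 33 Mus cells and none in Acomys, at least 9.32-fold lower, and was low elsewhere too (log2 -6.84). Fstl1, a secreted follistatin-like glycoprotein, was 6.64-fold (2.2 to 32.8) lower, while elsewhere it was level (log2 0.05) but low, at 4.77 and 4.94 CPM. Tgfbi, a secreted product induced by TGF-beta, had a ratio of 1.12 (0.714 to 1.7), whose interval held 1.

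Secreted Wnt regulators lay on both sides of equality. Of 14 measured Wnt genes 6 were at least 2-fold higher in Acomys, 5 with a clear interval, and 3 lower, 2 clear. The shares over all genes were 18.5% and 29.9%. The median log2 ratio of the Wnt list, 0.22, turned to -0.13 when centred on well-expressed genes and to -0.43 without the cells of highest doublet score. Wif1, a secreted Wnt inhibitor, had 3 UMIs in 3 Mus cells and 30 in 6 Acomys cells, a ratio of 47.2 (14.7 to 242), but 1 cell held 22 of the 30 and the 4 cells with 1 or 2 cartilage UMIs held 26. Apcdd1, a membrane inhibitor of Wnt signalling, had none in Mus and 16 UMIs in 7 Acomys cells, 8 of them in those 4, at least 25.2-fold higher. Dkk3, of the dickkopf family, was 11.3-fold (3.71 to 41) higher.

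The secreted frizzled-related proteins, which bind Wnt ligands, went both ways. Sfrp1 had 14 UMIs in 10 Mus cells and 24 in 5 Acomys cells, 8.09-fold (4.02 to 16.9) higher, and its log2 ratio was 0.46 when at least 10 collagen and lumican UMIs were required. Sfrp2 had 52 UMIs in only 4 Mus cells, 31 of them in 1, and none in Acomys. Sfrp4 had 44 UMIs in 11 Mus cells and none in Acomys, at least 3.11-fold lower.

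Of 12 growth factor and receptor genes 3 were at least 2-fold higher and 5 lower in Acomys, beside 18.5% and 29.9% of all genes. The median log2 ratio of the list was -0.42. Pdgfra, the PDGF receptor that marks fibroblasts, had 52 UMIs in 27 Mus cells and 2 in 2 Acomys cells, 5.51-fold (1.45 to 46.7) lower. Pleiotrophin (Ptn) was 4.98-fold (2.47 to 10.1) higher in Acomys and midkine (Mdk), its relative, had 1 and 13 UMIs, a ratio of 61.3 (9.21 to 2607). Gas6, a ligand of TAM receptors, was level at 0.951 (0.599 to 1.46).

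Of 7 IGF binding protein genes 0 were at least 2-fold higher and 3 lower, beside 18.5% and 29.9% of all genes. Igfbp6 ranged from 0 to 1.26% of the UMIs of a Mus cell (median 0.286%) and from 0 to 1.34% of the UMIs of an Acomys cell (median 0.111%), the cells overlapped, and the ratio was 0.975 (0.81 to 1.17). Igfbp7 gave 1.18 (0.946 to 1.45). Igfbp5 had 150 UMIs in 33 Mus cells and 2 in 2 Acomys cells, 15.9-fold (4.32 to 132) lower, and Igfbp4 76 and none, at least 5.37-fold lower. Both were low in other Acomys barcodes too, with log2 ratios of -4.18 and -6.41.

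Chemokine and cytokine genes summed to 507 UMIs in the Mus fibroblasts and 8 in those of Acomys. Of 9 measured genes 0 were higher in Acomys by at least 2-fold and 7 lower, 6 with a clear interval. Over all genes 18.5% were higher and 29.9% lower, 9.4% with a clear interval. The median log2 ratio of the list was -3.74, or -1.13 with the 6 genes at 0 Acomys UMIs at their bound. Ccl11, eotaxin, ranged from 0 to 0.818% of the UMIs of a Mus cell (median 0.0126%), with UMIs in 27 of 51 cells, and was at 0 in all 18 Acomys cells and in every other Acomys barcode. Its 978 CPM in Mus was at least 10.8-fold above the Acomys floor. Like Lgals3 and Gnas, it had no UMI in any Acomys barcode of at least 1000 UMIs.

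Cxcl12, which attracts and retains leukocytes, ranged from 0 to 0.247% of the UMIs of a Mus cell (median 0.0183%) and had UMIs in 29 of 51 Mus and none of 18 Acomys cells. It was at least 7.06-fold lower in Acomys, where other barcodes held 108 UMIs. Cxcl14 had 110 Mus UMIs, 29 of them in 1 cell, and 1 in Acomys, 23.3-fold (4.1 to 929) lower. Ccl8 had 26 UMIs in 13 Mus cells and none in Acomys fibroblasts, although its log2 ratio in other barcodes was 3.77. That ratio came from 15 Mus and 99 Acomys UMIs. Ackr3, a scavenging receptor for Cxcl12, had 31 and none, and Il6st, the shared receptor of IL-6 type cytokines, 52 and none, with log2 ratios elsewhere of -6.25 and -4.85. Of 5 complement and clotting genes 2 were at least 2-fold higher and 1 lower, beside 18.5% and 29.9% of all genes. C4b had 34 Mus UMIs and none in Acomys, with log2 -4.26 elsewhere. Clusterin (Clu), a complement inhibitor and chaperone, had 10 and 25 UMIs, 11.8-fold (5.47 to 27.5) higher. Cartilage-marked Acomys barcodes held Clu at 6295 CPM against 754 CPM in the fibroblasts.

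Mesenchymal transcription factors had a median log2 ratio of -0.82, with 2 of 17 at least 2-fold higher and 7 lower, 2 and 2 with a clear interval. Over all genes the shares were 18.5% and 29.9%, or 9.6% and 9.4% with a clear interval. Ebf1 had 219 UMIs in 36 Mus cells and 21 in 7 Acomys cells, 2.21-fold (1.41 to 3.64) lower. Prrx1, a homeobox gene of limb and dermal mesenchyme, had 44 and 3 UMIs, 3.11-fold (0.996 to 15.6) lower. Twist2, a regulator of dermal fibroblast identity, was 2.78-fold (1.14 to 6.42) higher in Acomys. Every other gene of the list had at most 43 Mus UMIs, reached by Tcf4.

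Of 9 actin and contractile genes 2 were at least 2-fold higher and 3 lower, near the 18.5% and 29.9% of all genes measured. Tpm2, a tropomyosin, was 4.72-fold (2.36 to 9.42) higher in Acomys and vimentin (Vim) level, at 0.959 (0.718 to 1.26). Of 9 integrins and matrix receptors 2 were higher and 3 lower, again near those shares. Glypican 3 (Gpc3), a membrane proteoglycan that binds Wnt and hedgehog ligands, had 31 UMIs in 11 Mus cells and 36 in 8 Acomys cells. It was 5.48-fold (3.3 to 9.16) higher, and level elsewhere (log2 -0.10, at 13.5 and 12.6 CPM). Of 16 immediate early and stress genes 2 were higher and 7 lower, beside the same 18.5% and 29.9%. Klf4, a zinc finger factor also high in keratinocytes, was 2.1-fold (1.09 to 4.51) lower.

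Lipid carriers were among the most counted RNAs in both. Of 14 lipid and retinoid genes 4 were higher in Acomys by at least 2-fold and 4 lower, beside 18.5% and 29.9% of all genes. The median log2 ratio of the list was -0.43. Apoe, apolipoprotein E, had UMIs in every one of the 69 cells and a ratio of 0.753 (0.676 to 0.837). Apod ranged from 0 to 15.4% of the UMIs of a Mus cell (median 0.214%) and from 0 to 6.28% of the UMIs of an Acomys cell (median 0.0865%), with a few very high cells in each library, and its ratio of 0.805 (0.713 to 0.907) became log2 0.90 without the second Mus sub-cluster. Crabp1 had 1 UMI in Mus and 24 UMIs in 6 Acomys cells, a ratio of 113 (18.5 to 4658), and Crabp2 was 9.44-fold (2.53 to 42.8) higher. Lpl, lipoprotein lipase, had 48 UMIs in 24 Mus cells and none in Acomys, at least 3.39-fold lower, with a log2 ratio of -4.39 elsewhere.

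Among metallothionein and antioxidant genes 3 of 15 were higher in Acomys by at least 2-fold and 5 lower, 3 and 4 with a clear interval. Over all genes the shares were 18.5% and 29.9%, or 9.6% and 9.4% with a clear interval. Gpx3, the secreted glutathione peroxidase, ranged from 0 to 0.696% of the UMIs of a Mus cell (median 0%) over 24 cells with UMIs and had 1 UMI in the 18 Acomys cells. It was 55.9-fold (9.95 to 2218) lower in the Acomys fibroblasts and near level in other barcodes (log2 -0.29), at low levels of 4.9 and 4.0 CPM. Mt2, a metallothionein, Mgst1, a membrane glutathione transferase, and the globin gene Cygb had 202, 169 and 98 Mus UMIs and none in Acomys. They were at least 14.3-fold, 11.9-fold and 6.92-fold lower, with log2 ratios in other barcodes of -4.45, -1.87 and -5.15. Gstm1, a cytosolic glutathione transferase, was 3.67-fold (2.76 to 4.87) higher in Acomys, with UMIs in 42 of 51 and 17 of 18 cells, and ferritin heavy chain (Fth1) was at 0.87 (0.759 to 0.994).

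Beyond the lists, the rule for named genes picked cell surface and secreted genes with a large ratio. Cd34, a sialomucin of fibroblasts, stem and endothelial cells, had UMIs in 42 of the 51 Mus and 1 of the 18 Acomys cells. It stood at 1291 and 30.2 CPM, 42.8-fold (7.6 to 1699) lower. Its log2 ratio was -4.84 in the fibroblasts and -3.39 in other barcodes, from 588 Mus and 26 Acomys UMIs there. Il1r2, the decoy receptor of interleukin 1, had 149 UMIs in 32 Mus cells and none in Acomys, at least 10.5-fold lower, although other barcodes had a log2 ratio of 1.07. Tmem100 had 70 and none. Clec3b, tetranectin, had 707 UMIs in 39 Mus cells and 61 in 4 Acomys cells, 57 of them in 1 cell, and a ratio of 0.407 (0.308 to 0.529). Slpi, a secreted protease inhibitor, had 1 Mus UMI and 27 in 4 Acomys cells, 18 of them in 1.

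Several other extreme ratios were shared with the rest of the library. Nme2 was 30.3-fold (13.6 to 79.7) higher in Acomys fibroblasts and at log2 5.72 elsewhere, Aga 15.9-fold (7.04 to 40.6) higher and at 3.52, and Aldh3a1 10.4-fold (7.23 to 15.1) higher and at 4.58. Jund, Capg, Dstn and Eef1d had 113, 106, 82 and 83 Mus UMIs and none in Acomys, with log2 ratios elsewhere of -7.51, -5.23, -5.68 and -6.81. Ly6d, an epithelial surface protein, was 15.1-fold (7.61 to 35.1) lower, at log2 -3.53 elsewhere. The part of annotation in these ratios was not tested. Reads of members of near-identical families, such as Gstm1, Mt2, Nme2, Ly6d and Ccl8, may be split between copies by the counting, so their ratios are uncertain.

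Markers of fibroblast layers were counted in both libraries. Of 12 papillary markers in both gene lists 7 were measured: Crabp1, Apcdd1 and Wif1 were higher in Acomys as above, Ntn1 and Pdpn had 20 and 11 Mus UMIs and none in Acomys, and Dpp4 and Sparc were within 2-fold. The list summed to 5773 CPM in Mus and 8960.4 CPM in Acomys, and Sparc gave 833 of its 903 Mus UMIs. Of 9 reticular markers 4 were measured, of which Mgp, Ptn and Cpxm2 were higher in Acomys and Gpx3 lower, and the sums were 2333 and 4163 CPM. The 7 adventitial and fascia markers in both lists, Cd34, Dpt and Ackr3 among them, held 392 UMIs in Mus and 5 in Acomys, 2506 and 151 CPM, with 0 and 4 genes at 0. The list was low in the rest of the Acomys library too, with a median log2 ratio of -3.39 there against -2.81 in the fibroblasts, or -0.70 with genes at 0 at their bound. Dermal papilla markers were sparse in both, at 31 and 19 UMIs.

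The Mus fibroblasts held a small set of cells with very high Apod. In 8 of 51 cells Apod was at least 1% of UMIs, and these 8 held 1412 of the 1869 Apod UMIs. Clec3b had UMIs in 2 of the 8 against 37 of the other 43, Cxcl12 in 1 against 28, Gpx3 in 1 against 23 and Aspn in 1 against 30. Gpc3 ran the other way, in 6 of 8 against 5 of 43 cells, and Ccl11 was in 7 of 8 and 20 of 43. All 8 had UMIs of Dcn, Col1a1, Col1a2, Col3a1 and Lum. All of these genes but Dcn belong to the rule, so their presence was partly fixed by the choice of cells. The median depth of the 8 cells was lower, at 2682 against 4174 UMIs. This grouping was chosen after the values were seen.

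Among the Acomys fibroblasts, Postn and Mfap5 were mostly in different cells. The 8 cells with at least 5 Postn UMIs held 215 of the 220 Postn UMIs, all 24 Crabp1 UMIs, all 28 Tnmd UMIs and 15 of 16 Apcdd1 UMIs, in 6 cells each for these last 3. The other 10 cells held 170 of 176 Mfap5 UMIs, in 8 cells, and 279 of 319 Apod UMIs. Aspn was in both sets, with 161 UMIs in 7 of 8 cells and 79 UMIs in 10 of 10. Collagens and lumican took a median of 2.38% of UMIs in the 8 cells and 0.251% in the 10, at median depths of 2606.5 and 2630.5 UMIs. The groups were set from the values, so these counts are a description.

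In both libraries Col1a1 and Sparc varied together over cells, with a Spearman rank correlation of 0.85 over 51 Mus and 0.70 over 18 Acomys cells, both taken as shares of the UMIs of the same cells. Col1a1 and Dcn were less tied, at 0.32 and 0.58. Gsn, which encodes the actin-severing protein gelsolin, and Clec3b stood at 0.66 in Mus, and Apod and Clec3b at -0.13. Clec3b was in too few Acomys cells, 4 of 18, to describe a relation there.

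**Figure D5:**
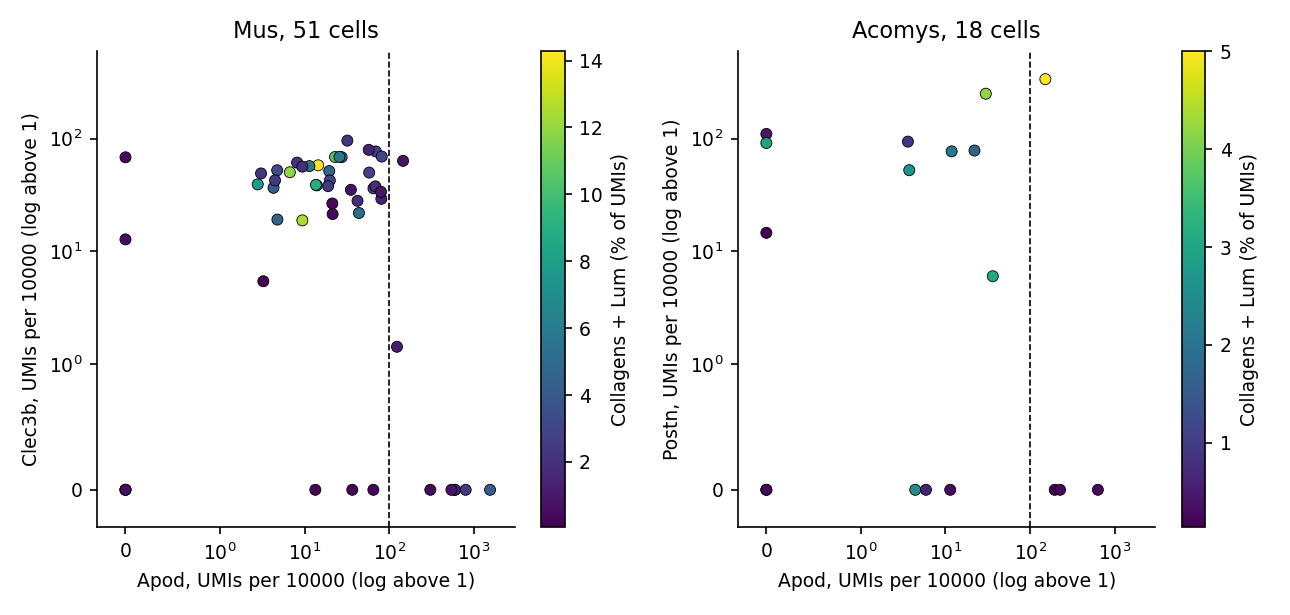
Apod (x axis) against Clec3b in the 51 Mus cells and against Postn in the 18 Acomys cells (y axes), all in UMIs per 10000 on axes that are linear to 1 and log above, coloured by the percent of UMIs on collagens and lumican. Right of the dashed line (1% of UMIs) lie 8 Mus cells, 2 with Clec3b, and 4 Acomys cells, 1 with Postn.

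Clustering the cells of each library by themselves (Leiden, resolution 1) gave 3 Mus sub-clusters of 21, 15 and 15 cells and 2 Acomys sub-clusters of 10 and 8. At resolution 0.5 there were 2 and 1. The sub-clusters are given by number and leading genes, without a test. The first Mus sub-cluster was led by Adra1b, Creb5, Dkk2 and Myoc, with 164 of 179 Myoc UMIs in 16 of its 21 cells, and had the highest median of collagen and lumican, 4.03% of UMIs. The third was led by Sfrp2, Gdf10, Mgp, Sfrp4 and Spon1. It held all 52 Sfrp2 UMIs, 53 of 58 Mgp UMIs and 40 of 49 Spon1 UMIs.

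The leading genes of the second Mus sub-cluster went against the fibroblast label. Its 15 cells were led by Ube2c, Vwa1, Pttg1 and Lhx2, of which Ube2c and Pttg1 act in mitosis and Lhx2 in the hair follicle. These rest on few cells, with UMIs of Ube2c in 3, Vwa1 in 6, Pttg1 in 4 and Lhx2 in 2 of the 15. Csrp1, a LIM domain protein, had UMIs in 10 and Thbs4, a thrombospondin, in 8, and 5 cells held 74 of 79 Krt79 UMIs. Keratins took a median of 2.37% of UMIs, against 0.894 and 0.920% in the others, and collagens and lumican 0.448%. Still, Dcn had UMIs in 14 of the 15 cells, and the sub-cluster held 1341 of the 1869 Apod UMIs. It held few UMIs of Clec3b (17 of 707) and Gpx3 (9 of 264). The first Acomys sub-cluster, of 10 cells, was led by 1520401A03Rik, with 39 UMIs all in 1 cell, and by Wif1 and Fgfbp1. It held 24 of 28 Ctgf UMIs, and 10 Snorc UMIs against 1 in the second. Collagens and lumican took a median of 0.511% of its UMIs, against 2.75% in the second. Keratins took 0.978% against 1.26%, and Dcn had UMIs in all 10 cells. The second was led by Clec3b, Fbln2, Crip1 and Ebf1, with 149 of 191 Col3a1 UMIs.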

How the data were processed

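Ear skin of Mus and Acomys was measured with 10x Genomics droplet 3′ libraries, 1 per species. The deposited values are UMI counts per gene and barcode, made by the authors with Cell Ranger 2.2.0 and the build mm10 for Mus, per the submitters' processing notes. For Acomys the annotation was not given in the sources used here. Genes were joined by symbol, ignoring case, over 15710 shared symbols, and CPM, ratios with exact 95% intervals and log2 ratios (prior count 0.5) were computed from summed counts. Genes needed 10 UMIs over both libraries, and a gene with no UMI was bounded by 3 counts over the group. With 1 library per species no test was run and intervals cover counting error only.

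The genes, lists and cells were chosen with earlier results of these data known. Named genes are, per list, up to 4 of highest level and those past 4-fold in either direction with an interval clear of 2-fold, and beyond the lists those of highest level, highest ratio to other barcodes and most extreme ratio between libraries. Eln, Fbn1, Fbln1, Ltbp4, Loxl1, P4hb, Sparcl1, Nid1, Prelp, Pdgfra, Pmp22, Ackr3, Col14a1, Col16a1, Ntn1, Pdpn, Dpp4, Cpxm2, Lgals3, Gnas and the sub-cluster genes lie outside it and were chosen after their values were seen. Cells were clustered with leidenalg 0.10.2 on 500 variable genes and 20 components. Doublets were scored against simulated pairs and kept. The ratio step was tested on simulated data. Alternatives covered the cell rule, doublets, keratin, free RNA, scaling and filters. That for free RNA subtracted a fixed 10% in both libraries. Krt10 in the fibroblasts stood at 25.6% in Mus and 36.8% in Acomys of its level in barcodes with 1 to 10 UMIs. A larger share of free RNA was not tested. Python 3.11.15, numpy 2.4.6, scipy 1.17.1, pandas 2.3.3, scikit-learn 1.9.0 and matplotlib 3.10.9 were used.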

Additional observations from a re-analysis of the deposited data

Results flagged for a closer look

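Genes known by an identifier alone, which no comparison used, held 28.3% of the UMIs of the Acomys fibroblasts. Among genes with at least 20 UMIs in the Acomys fibroblasts, 6 of these stood at least 8 times above the other Acomys barcodes, as did 44 genes with a symbol. Among barcodes with at least 500 UMIs but fewer than the 1000 that the rule asks for, 15 in Mus and 3 in Acomys met its other terms. Clu stood below the other barcodes in the Mus fibroblasts (log2 -1.57) and above them in Acomys (1.04), from 10 and 25 UMIs. Cartilage-marked barcodes held more Clu, at 2155 CPM in Mus and 6295 CPM in Acomys against 63.9 and 754 CPM in the fibroblasts. Of the 18 Acomys fibroblasts 4 had 1 or 2 cartilage UMIs. Il1r2 stood above them in Mus (3.15, 149 UMIs) and below them in Acomys (-3.90, no UMI). Each species has 1 library, and the difference between species was not tested for either gene.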

How the results depend on the processing

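Requiring 3 collagen and lumican UMIs gave 31 Acomys fibroblasts and 1506 genes at least 2-fold lower. Leaving out cells with over 1% keratin gave 23 Mus and 8 Acomys fibroblasts, 329 higher and 405 lower genes. That keratin share counts no Krt14 in Acomys, so the limit was not equal in the 2 libraries. Centring on well-expressed genes gave 370 higher genes. A minimum of 1 UMI gave 2250 higher and 1948 lower, and a minimum of 300 CPM, added after seeing the data, 200 higher and 123 lower. Without the second Mus sub-cluster, also added, 370 of the 569 higher and 569 of the 919 lower genes were on the same side past 2-fold. Genes with enough UMIs fell from 3073 to 2159 there, and a gene no longer measured is not in these counts. The cause of these shifts was not tested, apart from the filters, which change the number of genes measured. Of the single genes, Krt19 turned from a log2 ratio of -3.25 to 0.34 with at least 10 collagen and lumican UMIs, and Sparcl1 from 1.40 to -0.17 without the highest doublet scores. Apod ranged from -2.55 to 0.90. The medians of 5 of 19 lists kept their sign under every alternative run (fibrillar collagens, collagen processing, small leucine-rich proteoglycans, proteases, chemokines) and 14 took both signs. The fibrillar list includes 3 genes of the rule, and the collagen processing median turned to 0.03 with genes at 0 Acomys UMIs at their bound. No paired analysis was possible because each species has 1 library. The 46897 Acomys UMIs limit what can be detected: a gene under 90.5 CPM there is below 3 counts.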
